A study of Mus musculus with 4 samples.

Results

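Follicular B cells are the resting, recirculating B cells that carry IgM and IgD and wait for antigen in the follicles of spleen and lymph nodes. They were followed here among leukocytes of the mouse left ventricle. They were chosen by their own RNA, as cells that met a rule of unique molecule (UMI) counts. The sum of the B cell receptor signalling chains Cd79a and Cd79b and of Ms4a1 (CD20) was at least 4, the CD3 chains were at 0, and the complement genes C1qa, C1qb and C1qc, which mark macrophages, summed to at most 2. At least 1 UMI each of Fcer2a (CD23, the low-affinity IgE receptor) and Ighd (the IgD heavy chain) was required. Cells with both Vpreb3 and Cd24a (called transitional-like below), or with at least 2 of Fcrl5, Mzb1, Zbtb32 and Bhlhe41 (called B-1-like), were left out. The rule found 1788 cells among 11148 cells assigned to a mouse, 744 from sham and 1044 from DOCA-salt hearts.

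Both groups were C57Bl6J mice. One had a sham procedure and the other DOCA-salt, the mineralocorticoid deoxycorticosterone acetate given together with salt, which makes mice hypertensive. Perfused left ventricles were digested, CD45-bearing cells were enriched, hashtagged by mouse and stained with 16 surface antibodies, and the 4 mice of a group were pooled, sorted and sequenced from the 5' end as 1 library. Age, sex and the length of treatment are not given in the sources used here. Because each group is 1 library, treatment and library cannot be told apart in any comparison of the groups.

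Follicular B cells leave the blood through receptors that include CCR7, home to follicles through CXCR5 and return to the circulation through S1PR1. They are held in quiescence by factors such as KLF2 and FOXO1 and by proteins that shorten the life of messenger RNA, among them BTG1 and the ZFP36 family. In the heart, B cells are known to lie largely within or along the microvasculature.

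The members held 269823 to 1106887 UMIs per mouse, with a median of 2686 UMIs per sham cell and 2991 per DOCA-salt cell, and a median of 1169 and 1267 detected genes. The median mitochondrial share ran from 2.26% to 2.34% over sham mice and from 2.46% to 2.81% over DOCA-salt mice, with no overlap. The 2 libraries shared 41 cell barcodes. Among the members, 10 carried one of these, and none of these barcodes was a member in both libraries. Scrublet, a doublet caller, marked 26 members (1.45%). The p-values below measure the spread between mice that the labels call biological replicates.

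The genes that chose the members are described, and no test of them is read as a finding. The median member held 21 UMIs of Cd79a, Cd79b and Ms4a1 together, 2 of Fcer2a and 1 of Ighd. The highest Fcer2a count was 12 and the highest Ighd count 8. Most members lay close to the rule's edge on at least one gene, since 607 had a single Fcer2a UMI, 895 a single Ighd UMI and 303 a single UMI of each. Just inside the B cell sum were 14 members with a sum of 4, and 16 cells with a sum of 3 met every other condition. At the C1q limit, 191 members held a sum of 2, 493 a sum of 1 and 1104 none, while 60 cells with a sum of 3 were left out. Of the 5139 cells that met the B cell, CD3 and C1q conditions, 2076 were B cells lacking a UMI of Fcer2a or of Ighd. Of these, 973 had Fcer2a only, 622 Ighd only and 481 neither, so cells left out for this reason can include follicular B cells read too shallowly.

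Surface protein, which the rule did not use, separated the members from T cells in every mouse. Both sides were drawn by CD3 RNA, at 0 UMIs in members and at least 2 in T cells. Lower CD3, CD4 and CD8a protein is therefore close to given by that choice, and shows only that the members are not T cells. As a share of the 16 surface antibodies' UMIs, on the log2 scale of the share scaled to the same total as CPM, plus 1, CD4 was lower in follicular B cells than in T cells (difference -4.95 ± 0.129, SD over 8 mice; exact sign-change permutation p = 0.00781, adjusted p = 0.0114 over the antibodies). By the same test so were CD8a (-3.85 ± 0.588) and CD3 (-1.28 ± 0.282). Each of these held in 8 of 8 mice, and the p is the smallest that 8 pairs allow. The lymph node homing receptor CCR7 (0.76 ± 0.254), the costimulatory ligand CD80 (0.54 ± 0.186) and the ectonucleotidase CD39 (0.47 ± 0.285) also had larger shares on follicular B cells in 8 of 8 mice. So did Gal3 (0.90 ± 0.175), TIGIT (0.61 ± 0.198), CD64 (0.40 ± 0.286) and CD44 (0.30 ± 0.173), so a larger share alone does not mark B cells. Mean UMIs per cell ran the other way, since CD39 and CD80 were lower on follicular B cells in 8 of 8 mice (in sham mouse 1, 204 against 341 for CD39 and 116 against 176 for CD80) and CCR7 in 6 of 8. The former are shares of 1 total, so the large CD4 and CD8a counts of T cells lower the shares of every other antibody there. RNA of other B cell stages was mixed. Of the immature B list outside the rule, Rag1, Rag2, Igll1 and Dntt were at 0 UMIs in all members, Cd93 had 13, Sox4 60 and the transcription factor Spib 1189. Of the plasma cell list, Tnfrsf17 had 1, Jchain 3, Prdm1 6, Derl3 7 and Sdc1 34, while Creld2, Irf4 and Xbp1 had 153, 178 and 392. The T cell genes outside the rule ran from 2 UMIs each of Cd4 and Cd8a to 149 of the kinase Lck.

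**Figure D1:**
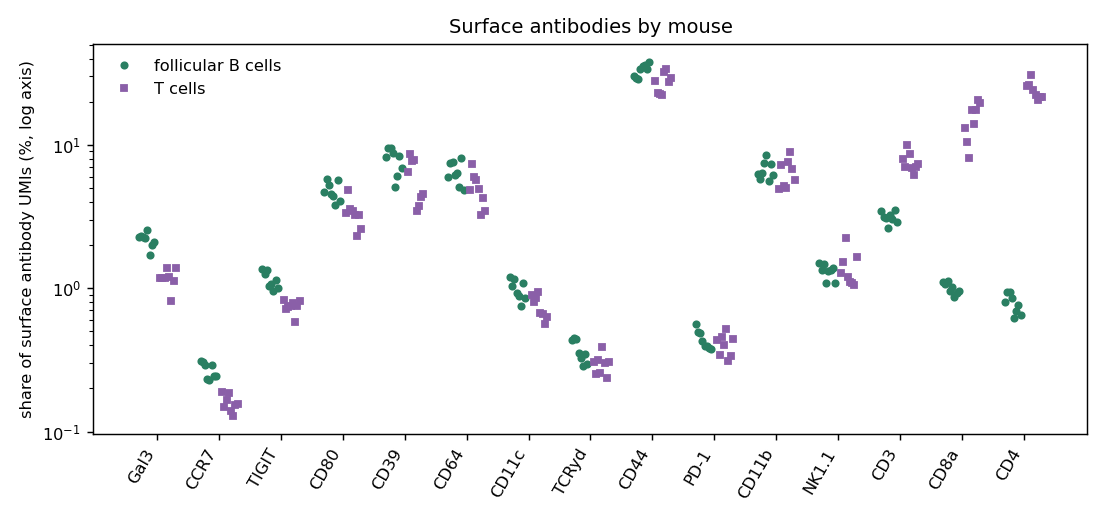
Share of surface antibody UMIs (percent, log axis) in follicular B cells (circles) and T cells (squares), 1 point per mouse for 8 mice, ordered by the mean log2 difference. CD4, CD8a and CD3 lie below the T cell points in follicular B cells with no overlap. The shares of CCR7, CD80 and CD39 are higher within each of the 8 mice, though the ranges of CD80 and CD39 overlap.

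The antigen receptors of these cells drew on many germline segments. The heavy chain segment with the most UMIs in a cell was spread over 93 Ighv genes, of which 52 led at least 10 cells, and the kappa segment over 93 Igkv genes, of which 54 led at least 10. Ighv1-26 led 119 of 1761 cells with heavy chain UMIs (6.76%), and Igkv10-96 led 101 of 1757 cells with kappa UMIs (5.75%). The last 120 coding bases of these most used segments, from the GENCODE M21 transcripts, are shown because they run into the third complementarity-determining region, where antigen is contacted. Capitals mark the codons for Tyr-Tyr-Cys in the heavy chain and Tyr-Phe-Cys in the kappa chain, whose cysteine lies just before that region. Ighv1-26 lies on the minus strand at chr12:114788372-114788805 and Igkv10-96 on the minus strand at chr6:68631963-68632442 (GRCm38), both in coding exons.
Ighv1-26: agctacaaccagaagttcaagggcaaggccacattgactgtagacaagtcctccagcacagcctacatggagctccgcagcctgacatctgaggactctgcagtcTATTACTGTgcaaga
Igkv10-96: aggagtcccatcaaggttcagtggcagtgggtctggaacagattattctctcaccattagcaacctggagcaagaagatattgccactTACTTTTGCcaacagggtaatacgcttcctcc

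Ighv1-26 led 8.42%, 3.43%, 11.9% and 5.31% of cells with heavy chain UMIs in sham mice 1 to 4, and 5.52%, 8.12%, 8.51% and 6.54% in DOCA-salt mice 1 to 4. Igkv10-96 led 9.5%, 4.41%, 8.62% and 7.25% in sham mice and 3.78%, 5.88%, 3.19% and 5.0% in DOCA-salt mice. The groups overlapped for both segments, and these shares were not tested. Near-identical segments can share reads, so single segments are uncertain.

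Light chain use depended on which part of the gene was counted. Lambda constant genes gave 70.9% of kappa plus lambda constant UMIs, yet 99.1% of cells led by a kappa V segment also held lambda constant UMIs. By V segments, 78 of 1784 cells with light chain UMIs (4.37%; exact Clopper-Pearson 95% interval 3.47 to 5.43, counting error only) had more lambda than kappa. This measure was chosen with the values in view. By that measure the share was 4.9%, 5.26%, 5.0% and 2.4% in sham mice 1 to 4 and 4.31%, 3.99%, 3.13% and 5.26% in DOCA-salt mice 1 to 4. The groups overlapped (means 4.39% ± 1.33 and 4.17% ± 0.883, SD, n = 4; exact permutation p = 0.83). Light chain UMIs were also seen in T cells, of which 31.5% held a kappa V UMI at a median of 5038 UMIs per cell against 2859 in follicular B cells, while 4.69% held Iglc2 and 4.69% Igkc. Their source was not tested.

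Because every member had to hold an Ighd UMI, the rule itself left out switched cells without IgD, and the isotypes are given only as a description. Ighm, the IgM heavy chain, made up 58.7% ± 1.6 of Ighm plus Ighd UMIs among sham mice and 58.8% ± 3.71 among DOCA-salt mice (SD, n = 4), with overlapping groups. Ighd entered the rule, which raises its share, so this is a description and no test of it is read. It does count among the shares adjusted together below. No Ighm UMI was found in 206 members. An Ighm UMI was also present in 58.5% of T cells against 88.5% of follicular B cells, while Ighd was in 1.37% of T cells. A switched constant gene was the most abundant in 2 of 1788 cells (0.112%; exact Clopper-Pearson 95% interval 0.0136 to 0.403), 1 in each group. The IgG genes Ighg1, Ighg2b and Ighg2c had 0 UMIs in all members, Ighg3 had 3 and Igha 53.

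Follicular B cells made up a smaller share of the leukocytes in each DOCA-salt heart than in any sham heart. The share was 20.9%, 17.3%, 19.1% and 16.1% in sham mice 1 to 4. In DOCA-salt mice 1 to 4 it was 15.7%, 14.5%, 12.3% and 15.2%. The means were 18.4% ± 2.09 and 14.4% ± 1.49 (SD, n = 4), a difference of -3.93 percentage points. The exact two-sided permutation p was 0.0286, the smallest that 4 against 4 allows, and 0.171 after adjustment over 6 cell and receptor shares, so the difference did not pass. Fewer follicular B cells and more of other leukocytes cannot be told apart in a share. Among B cells the follicular share was 34.1% ± 3.04 for sham and 34.9% ± 3.92 for DOCA-salt, with overlapping groups (exact permutation p = 0.657). The detection conditions depend on depth, so both shares were recomputed with each cell thinned to 1000 UMIs. The share of leukocytes was then 7.59% and 5.30% (exact permutation p = 0.0286, adjusted p = 0.171), again with no overlap and again short of passing.

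**Figure D2:**
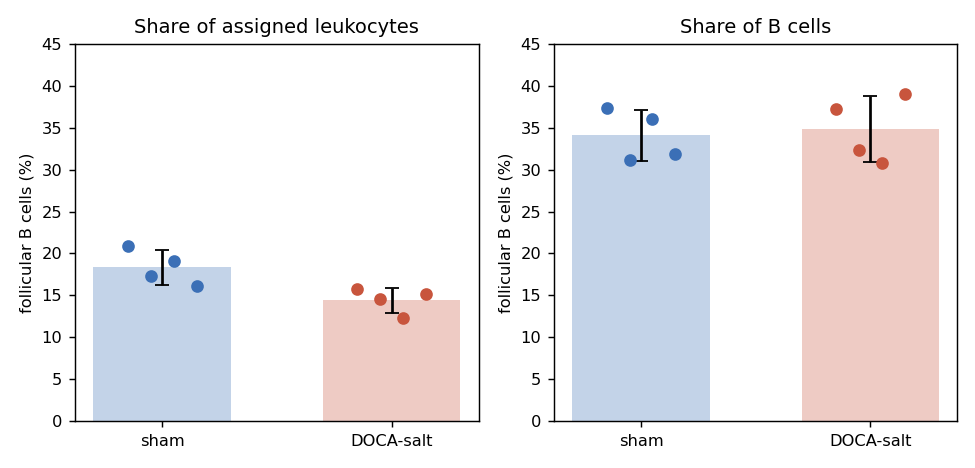
Follicular B cells as a percentage of assigned leukocytes (left) and of B cells (right). Bars are means, error bars SD and points the 4 mice of each group. On the left every DOCA-salt mouse lies below every sham mouse, and on the right the groups overlap.

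In the comparison of DOCA-salt with sham, a small set of genes differed within follicular B cells, and most of it was lower. RNA was summed over the members of each mouse and tested with edgeR's quasi-likelihood test with Benjamini-Hochberg adjustment at 0.05. Values are UMI counts scaled to the usual common total (CPM), and changes are log2. Of 6098 genes tested, 20 passed (0.328%), of which 4 (0.0656%) were higher and 16 (0.262%) lower. An unadjusted p under 0.05 was reached by 584 (9.58%). The mice of the groups did not overlap for any of these 20 genes, and did not overlap for 371 genes in all (6.08%), with DOCA-salt above for 159 (2.61%) and below for 212 (3.48%). In bulk sums such as these, fewer cells with a transcript and less of it per cell cannot be told apart.

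The lower genes included Btg1, Zfp36l2, Sesn1 and Tsc22d3, all 4 of them on the list of quiescence and mRNA decay genes. This list and those below were chosen with earlier results of these data known. Their counts and medians are therefore descriptions and not independent support. Btg1, which slows proliferation and recruits the CCR4-NOT deadenylase, was at 2354, 2594, 2530 and 2315 CPM in sham mice 1 to 4 and at 1565, 1498, 1506 and 1454 CPM in DOCA-salt mice 1 to 4. Every DOCA-salt mouse lay far below the lowest sham mouse, and Btg1 fell by 0.70 (log2 change -0.70 ± 0.0562, SE; edgeR adjusted p = 1.54e-05). Zfp36l2 binds AU-rich messenger RNA and promotes its decay. It was at 367, 475, 475 and 586 CPM in sham mice 1 to 4 against 298, 224, 252 and 250 CPM in the DOCA-salt mice (log2 change -0.89 ± 0.134; edgeR adjusted p = 0.00808). Sham mouse 1 came nearest to the DOCA-salt mice.

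Sesn1, a stress-induced inhibitor of mTORC1, was at 235, 383, 272 and 330 CPM in sham mice 1 to 4 and at 151, 159, 135 and 158 CPM in DOCA-salt mice 1 to 4. The DOCA-salt mice lay close together below all sham mice, and Sesn1 fell (log2 change -1.0 ± 0.141; edgeR adjusted p = 0.00657). Tsc22d3 (GILZ), a classical glucocorticoid-induced gene, was at 1351, 1379, 1540 and 1468 CPM in sham mice 1 to 4 against 1026, 834, 1144 and 922 CPM in the DOCA-salt mice (log2 change -0.55 ± 0.0884; edgeR adjusted p = 0.0107). Of the 18 members of the quiescence and mRNA decay list, all tested, these 4 fell and none rose. Among all genes tested, 0.262% were called lower. The median change of the 18 was -0.21, against 0.0023 for all genes tested, and 15 of 18 were below 0, where 49.7% of all genes were. Txnip, the thioredoxin inhibitor, was at 602 ± 106 CPM for sham and 410 ± 52.0 CPM for DOCA-salt (SD, n = 4) and missed the threshold (edgeR adjusted p = 0.0873), while Klf2 was at 2249 ± 248 and 2470 ± 36.8 CPM (edgeR adjusted p = 0.571).

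Cxcr4, the receptor for the stromal chemokine CXCL12, was at 80.9, 84.8, 105 and 86.9 CPM in sham mice 1 to 4. In DOCA-salt mice 1 to 4 it was at 48.0, 40.1, 54.8 and 46.1 CPM. The groups were well separated, and Cxcr4 fell by 0.93 (log2 change -0.93 ± 0.144; edgeR adjusted p = 0.00931). It was the single member of 18 homing and egress genes to pass, where 0.328% of all genes tested passed. The integrin chain Itga4 (199 ± 9.86 and 151 ± 21.8 CPM, edgeR adjusted p = 0.269), the lysophosphatidylserine receptor Gpr174 (49.6 ± 4.0 and 34.0 ± 8.15 CPM, edgeR adjusted p = 0.483) and the integrin chain Itgal (40.1 ± 14.4 and 26.8 ± 7.46 CPM, edgeR adjusted p = 0.686) did not pass. The egress receptor S1pr1 was at 227 ± 16.2 and 215 ± 25.0 CPM (SD, n = 4). Cxcr4 was detected in 20.2% of sham members and 12.4% of DOCA-salt members, against 12.7% and 11.1% of T cells.

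Tsc22d3 and Cxcr4 are also on the list of corticosteroid response genes, of which 10 of 14 members were tested. These 2 fell and none rose, where 0.262% of all genes tested were called lower. Both are already counted in the lists above. The median of the 10 was -0.34, against 0.0023 for all genes tested. Ddit4, an mTORC1 inhibitor, was at 83.6 ± 47.2 and 42.8 ± 17.5 CPM (edgeR adjusted p = 0.23), the phosphatase Dusp1 at 256 ± 69.7 and 151 ± 50.5 CPM (edgeR adjusted p = 0.238) and Glcci1 at 80.3 ± 17.0 and 43.8 ± 8.47 CPM (edgeR adjusted p = 0.0722). The other way lay Fkbp5 and Sgk1, with log2 changes of 0.45 ± 0.35 and 0.44 ± 0.283, neither past the threshold. The glucocorticoid receptor Nr3c1 changed by -0.12 ± 0.205 (edgeR adjusted p = 0.921), and the mineralocorticoid receptor Nr3c2, through which deoxycorticosterone acts, had 5 UMIs in all members and was not tested.

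The sequence before the start of 2 of the lower genes, Btg1 and Cxcr4, is given with the motifs searched. Each is on the quiescence or the corticosteroid list and each holds a searched motif, so neither stands for the named genes as a whole. Of the 14 genes named by the rule, 11 had an entry in the RefSeq promoter table (GRCm38.p6), with 15 promoters in all, and the 250 bases before each start were searched on both strands. Capitals mark GTAAACA, the core bound by FOXO factors, in Btg1, and AGAACA, the half-site of corticosteroid receptors, in Cxcr4. The Btg1 promoter spans chr10:96616751-96617000 on the plus strand, directly before the first exon, and the Cxcr4 promoter spans chr1:128592300-128592549 on the minus strand.
Btg1: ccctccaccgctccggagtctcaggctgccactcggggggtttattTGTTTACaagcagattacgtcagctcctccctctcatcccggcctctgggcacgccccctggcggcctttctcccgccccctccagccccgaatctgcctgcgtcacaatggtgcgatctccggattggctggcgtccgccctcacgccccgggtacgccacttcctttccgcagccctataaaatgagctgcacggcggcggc
Cxcr4: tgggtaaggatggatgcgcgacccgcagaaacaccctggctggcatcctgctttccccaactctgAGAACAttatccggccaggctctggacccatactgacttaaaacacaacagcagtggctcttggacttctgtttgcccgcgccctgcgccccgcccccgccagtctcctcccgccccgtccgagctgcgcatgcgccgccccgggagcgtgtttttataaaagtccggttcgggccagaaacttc

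GTAAACA was in 1 of the 15 promoters, that of Btg1 on its minus strand, and in 3.17% of all 32851 promoters. AGAACA was in 3 of the 15, those of Cxcr4, S100a6 and 1 start of Tsc22d3, and in 16.1% of all promoters. The full corticosteroid receptor site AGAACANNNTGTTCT, whose first 6 letters are the half-site, was in none of the 15 and in 0.00913% of all. A match describes letters, not binding.

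The most abundant gene on the list of lower genes was Malat1, a long noncoding RNA of the nucleus. It was at 9533, 10457, 9013 and 8970 CPM in sham mice 1 to 4 and at 5550, 5447, 5507 and 5537 CPM in DOCA-salt mice 1 to 4. The DOCA-salt mice hardly differed from each other, and Malat1 fell by 0.79 (log2 change -0.79 ± 0.0479; edgeR adjusted p = 8.07e-07). Neat1, another nuclear long noncoding RNA, was at 115 ± 7.86 and 149 ± 41.3 CPM and did not pass (edgeR adjusted p = 0.585).

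Signalling genes were among the others that fell. Otulin, the deubiquitinase that removes linear ubiquitin chains from NF-kB signalling complexes, was at 124, 134, 123 and 95.6 CPM in sham mice 1 to 4 and at 46.2, 57.4, 69.4 and 70.1 CPM in DOCA-salt mice 1 to 4. Sham mouse 4 was the lowest of its group and still above every DOCA-salt mouse (log2 change -1.01 ± 0.160; edgeR adjusted p = 0.0107). Otulin was the single member to pass of 14 NF-kB and linear ubiquitin genes, whose median change was -0.06. Of all genes tested, 0.328% passed. Gnai2, the G protein subunit behind most chemokine receptors, was at 550, 546, 549 and 509 CPM in sham mice 1 to 4 against 343, 341, 406 and 315 CPM in the DOCA-salt mice, and fell by 0.63 (log2 change -0.63 ± 0.0905; edgeR adjusted p = 0.00657).

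Smap2, a GTPase-activating protein for ARF1 (391 ± 13.7 and 242 ± 28.5 CPM, log2 change -0.67), Grb2, an adaptor of receptor signalling (223 ± 12.8 and 143 ± 13.1 CPM, log2 change -0.62), and Mknk2, a kinase of the translation factor eIF4E (145 ± 21.8 and 87.0 ± 7.76 CPM, log2 change -0.78), completed the named lower genes (SD, n = 4; edgeR adjusted p = 0.00657, 0.0127 and 0.0144). The rule left out 4 further lower genes as ribosomal, antigen receptor or numbered genes: Rpl35a (-0.34), Rps27rt (-0.77), Gm9844 (-0.81) and Igkv5-45 (-2.17). Ribosomal genes have near-identical copies between which reads can be split. Igkv5-45 had 0 to 43 UMIs per mouse and was the leading kappa segment of 3 cells. Tsc22d1 (30.5 ± 4.16 and 9.36 ± 5.2 CPM, log2 change -1.51, edgeR adjusted p = 0.0474) also fell, at a mean just under the 20 CPM needed for naming, and is given after its value was seen.

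S100a6, a calcium-binding protein of motile and activated cells, was at 39.5, 33.9, 24.7 and 67.8 CPM in sham mice 1 to 4. In DOCA-salt mice 1 to 4 it was at 102, 87.2, 121 and 95.04 CPM. Sham mouse 4 came closest to the DOCA-salt mice, and S100a6 rose by 1.18 (log2 change 1.18 ± 0.211; edgeR adjusted p = 0.0226). S100a6 is also a gene of B-1-like cells, at 632 CPM there against 86.9 CPM in follicular B cells over the same 5 mice. B-1-like cells were 1.23% to 1.5% of B cells over sham mice and 1.61% to 4.49% over DOCA-salt mice. T cells held more S100a6 than follicular B cells too. In the fit of both cell types, the sham level was 579 CPM for T cells against 40.2 for follicular B cells. Under DOCA-salt these levels were 795 and 97.5 CPM. The T cell change (log2 0.49) did not pass. What part B-1-like cells or T cells had in the result was not tested.

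Snrnp25, a protein of the minor spliceosome, was at 50.3, 54.3, 71.0 and 57.3 CPM in sham mice 1 to 4 and at 107, 104, 98.7 and 116 CPM in DOCA-salt mice 1 to 4, respectively (log2 change 0.92 ± 0.133; edgeR adjusted p = 0.00657). Lbr, the lamin B receptor of the inner nuclear membrane, was at 50.3, 74.6, 74.1 and 71.2 CPM in sham mice 1 to 4 against 99.6, 124, 113 and 117 CPM in the DOCA-salt mice (log2 change 0.75 ± 0.145; edgeR adjusted p = 0.042). Neither pair of groups overlapped. Rps19, a ribosomal protein gene outside the naming rule, rose by 0.31.

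**Figure D3:**
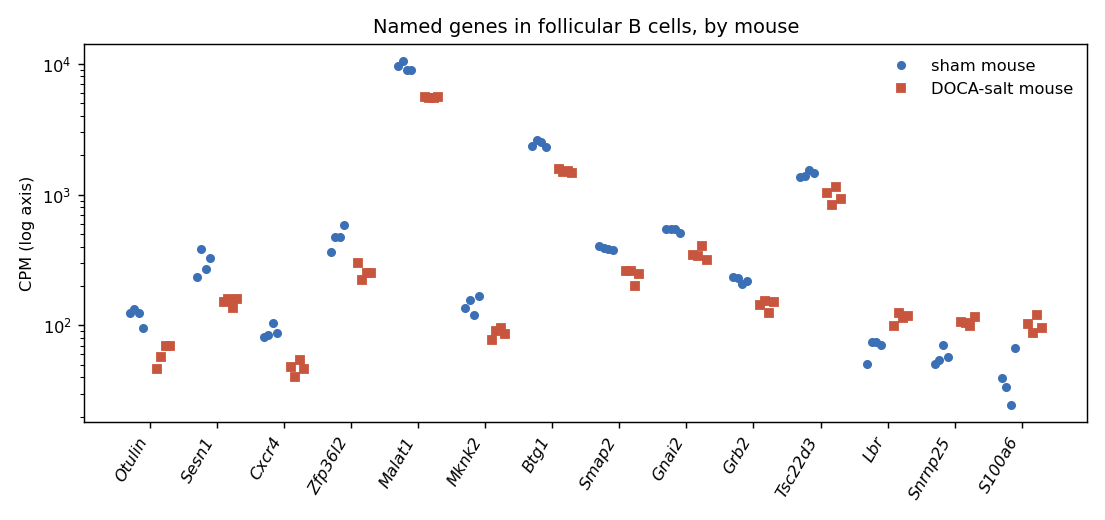
CPM (log axis) of the 14 named genes in follicular B cells, 1 point per mouse for 4 sham (circles) and 4 DOCA-salt mice (squares), ordered by log2 change. For 11 genes every DOCA-salt mouse lies below every sham mouse, and for Lbr, Snrnp25 and S100a6 above.

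The named genes differed in how well they held. Malat1 and Btg1 passed the threshold in all 23 alternatives run, Sesn1 in 22, Gnai2 in 21, Zfp36l2, Cxcr4, Smap2 and Snrnp25 in 20 and Otulin in 19. Tsc22d3 passed in 17 of 23, Mknk2 and Grb2 in 16, S100a6 in 12 of 22 and Lbr in 11 of 23. Leaving out sham mouse 2 ended the call of Otulin (edgeR adjusted p = 0.064), leaving out sham mouse 3, sham mouse 4 or DOCA-salt mouse 4 that of Tsc22d3 (0.0561 to 0.065), and leaving out sham mouse 2, DOCA-salt mouse 1 or DOCA-salt mouse 4 those of Grb2 (0.053 to 0.065) and Mknk2 (0.0709 to 0.0767), the latter also without sham mouse 4 (0.0805). S100a6 was lost without sham mouse 1, 2 or 3 or DOCA-salt mouse 1 or 4 (edgeR adjusted p = 0.0669 to 0.156) and without the cells called doublets (0.21), and Lbr without any sham mouse or DOCA-salt mouse 2, 3 or 4 (0.0598 to 0.133). With cells thinned to 1000 UMIs 5 of the 13 named genes measured passed, with 96 cells per mouse 4 of 14, and without Lyz2 or Apoe UMIs 2 of 14. Zfp36l2, Cxcr4 and Snrnp25 lost their calls in just these settings (edgeR adjusted p = 0.0704 to 0.597). Other alternatives, such as other scalings, change the data little, so the counts of 23 weigh them all alike. No named gene changed its direction.

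Of 14 identity genes outside the rule, all tested, none passed, and their median change was -0.11. Cr2 (CD21), the complement receptor, came nearest at 99.8 ± 13.1 CPM against 146 ± 5.68 CPM under DOCA-salt (log2 change 0.57 ± 0.117; edgeR adjusted p = 0.0569). A Cr2 UMI was in 21.0% of sham and 32.5% of DOCA-salt members, and in 8.08% and 13.0% with each cell thinned to 1000 UMIs, against 0.311% and 0.285% of T cells. The B cell transcription factors Pax5 (134 ± 18.2 and 96.8 ± 12.7 CPM), Bach2 (236 ± 14.1 and 193 ± 12.3 CPM) and Ebf1 (1443 ± 96.0 and 1243 ± 118 CPM) had edgeR adjusted p of 0.229, 0.328 and 0.328.

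None of 27 tested B cell receptor signalling genes passed. Fcrla, an intracellular Fc receptor-like protein, was at 316 ± 21.1 and 233 ± 20.3 CPM (edgeR adjusted p = 0.101), and the lipid phosphatase Inpp5d at 162 ± 10.7 and 131 ± 10.9 CPM (edgeR adjusted p = 0.302). Of 9 tested antigen receptor response genes none passed, with Myc, the growth regulator, at 55.3 ± 19.5 and 97.0 ± 29.4 CPM (edgeR adjusted p = 0.328) and the chemokine Ccl4 at 56.1 ± 60.6 and 22.9 ± 9.63 CPM (edgeR adjusted p = 0.441). The median changes of these lists were -0.03 and -0.06.

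The remaining lists had no member past the threshold. In the BAFF and survival list 11 of 14 tested members were above 0, with a median of 0.11, and the kinase Pim2 was at 42.4 ± 16.7 and 57.1 ± 1.01 CPM (edgeR adjusted p = 0.528). Of 9 T cell help and cytokine receptor genes, the ICOS ligand Icosl was at 132 ± 13.3 and 151 ± 23.6 CPM and Il10ra at 214 ± 33.8 and 172 ± 4.31 CPM. All 10 MHC class II genes were tested, with a median of -0.05, and H2-Ob, the chain of the peptide-loading inhibitor, was at 741 ± 75.8 and 614 ± 52.8 CPM (edgeR adjusted p = 0.349). Of 9 Toll-like receptor genes, Tlr1 was at 34.1 ± 10.4 and 45.9 ± 4.28 CPM and the kinase Irak4 at 25.0 ± 2.96 and 16.8 ± 6.67 CPM.

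Interferon-stimulated genes had a median change of -0.24 over 12 tested members, with Ifi27l2a at 468 ± 70.4 and 294 ± 147 CPM (edgeR adjusted p = 0.449) and Stat2 at 24.4 ± 8.89 and 36.6 ± 2.54 CPM (edgeR adjusted p = 0.51). Early response and dissociation genes, which tissue digestion can induce, had a median of -0.06 over 16 tested members, with Jund at 1338 ± 270 and 934 ± 166 CPM (edgeR adjusted p = 0.192). Ribosome biogenesis genes were all above 0 (17 of 17 tested, median 0.21, where 50.3% of all genes were above 0), and none passed. The snoRNP protein genes Nhp2 and Nop58 were at 46.7 ± 10.5 and 69.2 ± 10.4 CPM, and at 55.5 ± 8.72 and 77.6 ± 8.21 CPM (edgeR adjusted p = 0.229 and 0.325).

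**Figure D4:**
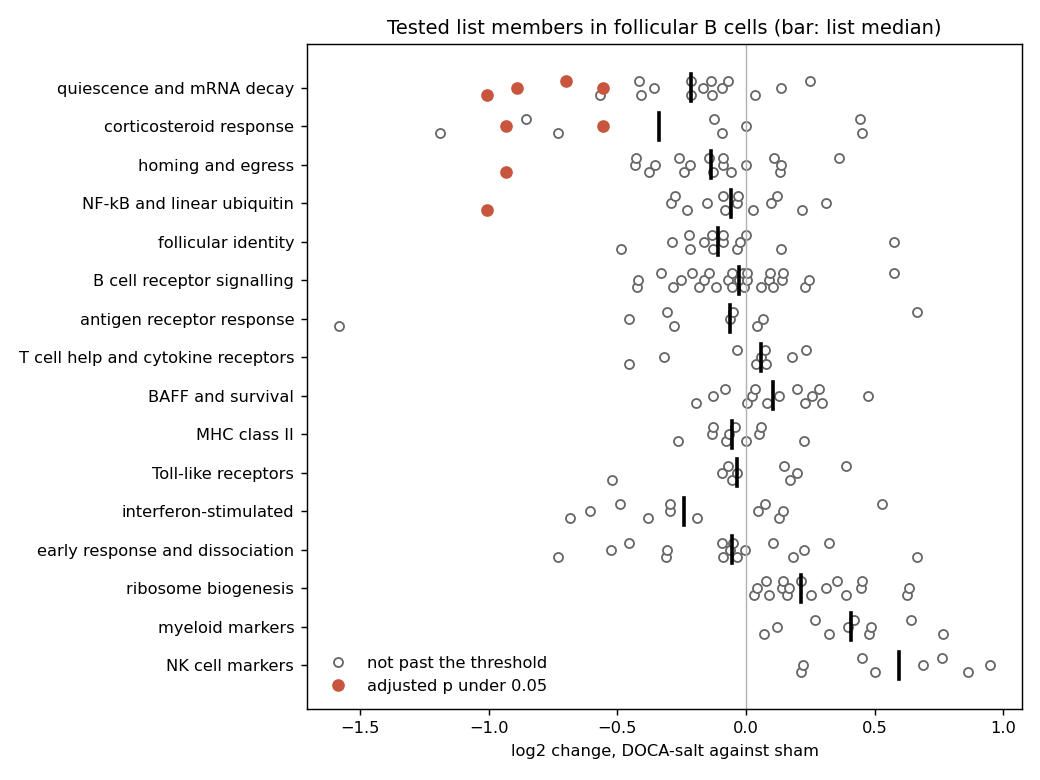
Log2 change of DOCA-salt against sham for each tested member of 16 gene lists in follicular B cells, with filled points past the edgeR threshold and a bar at the list's median. Filled points appear in 4 lists, all below 0, and ribosome biogenesis, myeloid and NK markers lie above 0.

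RNA of other cell types moved with the groups. The summed level of 13 macrophage and myeloid markers outside the rule, led by Lyz2, was 1236 to 1499 CPM in sham members and 1509 to 1964 CPM in DOCA-salt members, with no overlap and none of the 13 at 0. NK cell markers, all 8 detected, summed to 213 to 1119 CPM and 485.5 to 1311 CPM, with overlap. The 7 erythroid and platelet markers summed to 67.4 to 77.9 CPM in sham and 19.4 to 38.9 CPM in DOCA-salt members, with Alas2 at 0. The 14 cardiac tissue markers summed to 134.5 to 174 and 90.3 to 122 CPM, with Col1a1 and Col3a1 at 0. In T cells the erythroid and platelet sums were likewise apart, at 57.6 to 112 and 23.6 to 33.6 CPM. The myeloid sums of T cells overlapped, at 1384 to 4913 CPM in sham and 1608 to 2643 CPM in DOCA-salt mice. So did their cardiac sums, at 51.9 to 77.7 and 49.45 to 69.3 CPM. The part of depth, mitochondrial share and these markers in the gene results was not tested. Restricted to the 571 members with no Lyz2 or Apoe UMI (a setting chosen with the values in view) 4 genes passed, all lower, with Malat1 and Btg1 among them.

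The DOCA-salt changes of follicular B cells were set against those of T cells, cells of the same mice with at least 2 CD3 UMIs and none of Cd79a, Cd79b and Ms4a1. A direct test of the difference between the changes called 0 of 6886 genes (0%) in edgeR and 0 in DESeq2, with 410 genes (5.95%) at an unadjusted p under 0.05, so no gene was shown to change more in one cell type. In T cells alone 22 of 5610 genes passed (15 lower). Malat1 changed by -0.79 in follicular B cells and -0.86 in T cells, Btg1 by -0.70 and -0.79, Zfp36l2 by -0.89 and -0.80 and Gnai2 by -0.63 and -0.59, each past the threshold in both. Sesn1 changed by -1.0 and -0.50, Otulin by -1.01 and -0.22, Cxcr4 by -0.93 and -0.29 and S100a6 by 1.18 and 0.49, past the threshold only in follicular B cells, with adjusted p of the difference of 0.692, 0.594, 0.84 and 0.713 in edgeR. With cells thinned to 1000 UMIs the direct test called 10 genes.

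Surface antibodies did not separate the groups after adjustment over 16 antibodies. CD39 made up a log2 share lower by 0.47 in DOCA-salt members (difference -0.47; exact permutation p = 0.0571, adjusted p = 0.171), and the adhesion receptor CD44 differed by 0.24 (exact permutation p = 0.0571, adjusted p = 0.171). CD4, PD-1 and TCRyd were lower in 4 of 4 DOCA-salt mice (differences -0.38, -0.34 and -0.42; exact permutation p = 0.0286, adjusted p = 0.152). Their counts on follicular B cells were low. CD4 ran from 15.1 to 29.7 UMIs per cell over the mice, against 998 to 1532.5 on T cells. PD-1 ran from 8.75 to 15.8 and TCRyd from 6.25 to 14.1 on follicular B cells. All these differences are of shares of 1 total.

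Against the 1140 transitional-like B cells of the same mice, follicular B cells differed in few genes. Genes of the rule were left out, the mouse was a block, and 22 of 5802 genes passed (0.379%), 4 higher (0.0689%) and 18 lower (0.31%) in follicular B cells. The higher genes included the complement regulator Cd55 (603 against 485 CPM, log2 difference 0.32 ± 0.0593, SE), Shisa5 (1446 against 1218 CPM, 0.24 ± 0.0420) and the IgM receptor Fcmr, which was higher in 7 of 8 mice. Cd55 and Shisa5 were higher in 8 of 8 mice (edgeR adjusted p = 0.0268 and 0.0178).

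Lower in follicular B cells in 8 of 8 mice were, among others, Fam129c (32.4 against 84.7 CPM, log2 difference -1.30 ± 0.223), the nuclease Pld4 (93.6 against 167 CPM, -0.80 ± 0.101), the mitochondrial protein gene Chchd10 (-0.59 ± 0.0908), Fam43a (-0.54 ± 0.106) and Crip1 (-0.46 ± 0.0566), with edgeR adjusted p of 0.00158 to 0.0364. Iglv1 and Iglc1, lambda light chain genes, were lower by 1.04 and 0.98 (log2 differences -1.04 and -0.98) but in 7 of 8 mice. Cells led by a lambda V segment were 8.16% to 11.6% of transitional-like cells in sham and 4.17% to 6.62% in DOCA-salt mice, against 2.4% to 5.26% and 3.13% to 5.26% of follicular B cells. Ighm made up 58.5% to 79.6% of Ighm plus Ighd UMIs in transitional-like cells and 55.4% to 62.4% in follicular B cells, which the rule, unlike the transitional-like one, required to hold Ighd. Median UMIs per cell were 3020 and 2859, and the count of genes fell to 13 without the mouse block and to 8 without sham mouse 1.

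Against B-1-like B cells the difference was wide. Only 103 such cells were found, and 5 mice (1 sham, 4 DOCA-salt) had at least 10. Of 2821 genes 205 passed (7.27%), 103 higher (3.65%) and 102 lower (3.62%) in follicular B cells. Higher in 5 of 5 mice were the chromatin organiser Satb1 (109 against 18.6 CPM, log2 difference 2.78 ± 0.410, SE), the small GTPase Rras2 (2.28 ± 0.465), Icosl (149 against 34.5 CPM, 2.16 ± 0.354), the transcription factor Stat4 (2.05 ± 0.388), Trim59 (1.73 ± 0.378) and the kinase Lrrk2 (1.71 ± 0.482), with edgeR adjusted p of 0.000802 to 0.0476. Lower in 5 of 5 mice were Plac8 (149 against 961 CPM, -2.71 ± 0.264), the arginine synthesis enzyme Ass1 (-2.62 ± 0.333), S100a6 (-2.58 ± 0.282), Rilpl2 (-2.17 ± 0.245), Rassf4 (-2.08 ± 0.260) and the corepressor Cbfa2t3 (-1.92 ± 0.296), with edgeR adjusted p of 2.58e-05 to 0.00115.

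By list, 7 of 10 MHC class II genes were higher in follicular B cells and none lower, among them Cd74, the invariant chain (0.47 ± 0.0442), H2-Aa (0.47 ± 0.0605) and the class II transactivator Ciita (1.09 ± 0.307). Of 9 T cell help and cytokine receptor genes 5 were higher (Icosl, Il21r, Il4ra, Il10ra and Il2rg), with a list median of 0.90 against 0.0045 for all genes. Follicular identity genes that were higher included Cr2 (1.63 ± 0.274), Bach2 (1.31 ± 0.346), Ebf1 and Cd55, and Ighm was lower (-0.48 ± 0.0921). Ahnak, the single tested member of the B-1 and atypical B list outside the rule, was lower (-1.66 ± 0.221). Of 4 tested marginal zone genes, Dtx1 and Plac8 were lower, while Cr2, which is on that list too, was higher. B-1-like cells held a median of 4802 UMIs, and with all cells thinned to 1000 UMIs 25 genes passed.

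**Figure D5:**
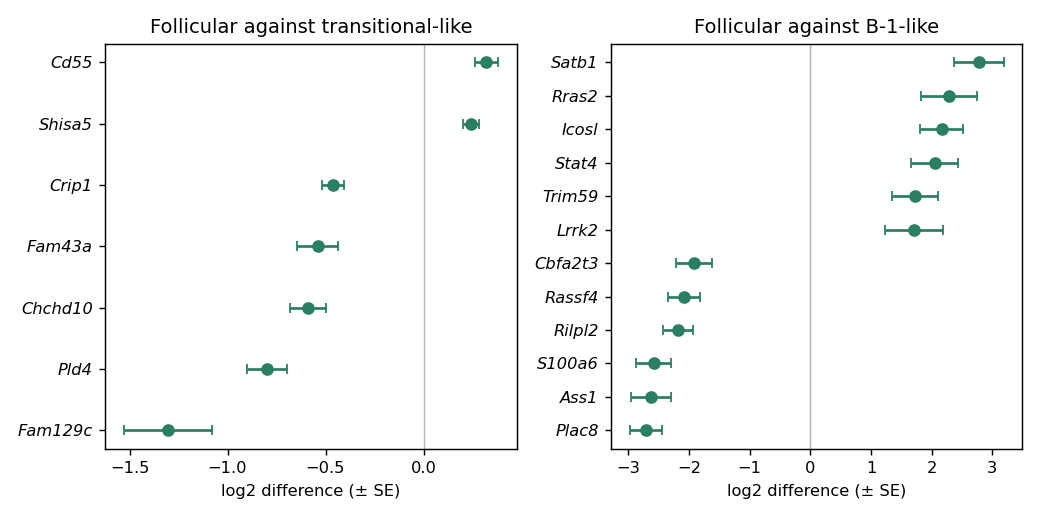
Log2 difference (± SE, edgeR) between follicular B cells and transitional-like cells over 8 mice (left) and B-1-like cells over 5 mice (right) for genes named in the text. Positive values are higher in follicular B cells, and the scale of the right panel is wider.

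Cell to cell, Gm42418 and kappa segments varied most. With each cell thinned to 1000 UMIs, the variance over the mean of UMIs, as a median over mice, was 0.998 for the median of 2482 genes. It was 29.4 for Gm42418, a gene model that overlaps ribosomal RNA, 25.2 for Igkv6-13, 21.0 for Igkv6-15, 20.7 for Igkv9-124 and 19.1 for Igkv1-117, each kappa segment being found in few cells at high counts. Outside receptor genes and Gm42418 the most variable were the granule protease Gzma (7.31) and the chemokine Ccl5 (7.26), then Malat1 (4.26), Junb (3.19) and Fos (3.12). Gzma and Ccl5 are genes of NK and T cells, and their UMIs lay in 3.07% and 3.75% of the members.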

How the data were processed

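Single-cell 5' RNA, hashtags and surface antibodies were measured in left ventricular leukocytes of 4 sham and 4 DOCA-salt mice. The authors deposited raw UMI counts per gene, antibody and barcode for each library (31053 genes), made with Cell Ranger and the mm10 build per the submitters' processing notes, which also name Seurat 4. The file headers give software version 3.1.0. Feature and barcode lists were deposited as text. The members and lists were chosen with earlier results of these data known.

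Barcodes with at least 200 genes and at most 10% mitochondrial UMIs were assigned to a mouse when the top hashtag had at least 2 times the next count. This kept 4118 of 4359 sham and 7030 of 7600 DOCA-salt barcodes, and 49 cells that met the rule were unassigned. The loss was uneven: these were 6 of 136 unassigned sham cells and 43 of 321 unassigned DOCA-salt cells that passed the cell filter. Doublets were called with Scrublet (scanpy 1.11.5) but removed only as an alternative.

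UMIs were summed per mouse and cell type, then filtered (filterByExpr), TMM-scaled and compared by the quasi-likelihood test of edgeR 4.0.16 (R 4.3.3). DESeq2 1.42.0 was an alternative. Shares and antibodies were compared by exact two-sided permutation (smallest p = 0.0286 for 4 against 4). On simulated data of the main comparison edgeR recovered 71% of 2-fold and 82% of 4-fold changes among 6098 genes, with 7 false calls. For the test of follicular against T changes it recovered 37% and 90% among 6886 genes, with 6 false calls. The simulations gave every gene the same dispersion between mice, unlike real genes, so recovery in the real data can differ. Transitional-like and B-1-like cells and T cells followed UMI rules given in the report.

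Named were up to 12 genes per direction in order of absolute log2 change, from those that passed, averaged 20 CPM or more and did not overlap between groups, and up to 6 per direction between B cell types. Numbered gene models, ribosomal, mitochondrial, haemoglobin, sex-linked, antigen receptor and rule genes were left out. Of each list, members past the threshold and up to 4 others by size were named. A few genes and antibodies that the rule or the lists would name are not reported here. Any other gene was picked with its values in view. Positions come from GENCODE M21 (GRCm38). Alternatives covered normalisation, filters, doublets, thinning, cell numbers and each mouse left out.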

Additional observations from a re-analysis of the deposited data

Results flagged for a closer look

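Among 76 groups of 4 mice checked for 1 mouse standing apart (cell and receptor shares, surface antibodies, named genes, Tsc22d1 and Cr2), 6 had such a mouse by Dixon's test, where chance gives about 5%. Sham mouse 4 had 2.40% of follicular B cells led by a lambda V segment, against 4.90% to 5.26% in the other sham mice, 509 CPM of Gnai2 against 546 to 550, and a TCRyd antibody share of 0.355% against 0.434% to 0.446%. Sham mouse 1 had 50.3 CPM of Lbr against 71.2 to 74.6. Switched cells were 0.488% in sham mouse 1 and 1.04% in DOCA-salt mouse 3, each from 1 cell, and 0 in the other mice of the group.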

How the results depend on the processing

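The count of 20 genes between DOCA-salt and sham stayed within 1.5 times under DESeq2 (21), other scalings, a 20 CPM floor, a hashtag margin of 5, the stricter cell filter and doublet removal. It was 137 with no low count filter, 12 with no C1q UMI, 82 without the Fcer2a and Ighd condition (3864 cells), 8 with cells thinned to 1000 UMIs, 6 with 96 cells per mouse, 4 with no Lyz2 or Apoe UMI and 54 with receptor, haemoglobin and mitochondrial genes left out. Leaving out 1 mouse gave 12 (sham 2, sham 4 or DOCA-salt 4) to 26 (sham 1), and 13 without sham 3. The settings with 4 to 12 genes and all 8 mice tested fewer genes (2942 to 4973). Most of the 20 genes were still tested there. Thinned, 17 were tested and 7 passed, and with 96 cells per mouse 18 were tested and 5 passed. With no Lyz2 or Apoe UMI 3 of 18 passed, and with no C1q UMI 12 of 18. The cause of the smaller and larger counts was not tested. The count against transitional-like cells was 13 without the mouse block and 8 to 27 with 1 mouse left out (8, 10, 9 and 14 without sham 1, 2 and 4 and DOCA-salt 4). Against B-1-like cells it was 25 thinned and 123 to 175 with 1 mouse left out (133 and 123 without DOCA-salt 2 and 4; only the 5 mice with at least 10 B-1-like cells entered). The test of follicular against T changes called 10 genes thinned and 0 to 7 with 1 mouse left out. Differences that never passed turned sign: the share among B cells was -0.66 percentage points thinned and -0.64 to 2.13 with 1 mouse left out, the lambda constant share -1.55 to 0.52, lambda-led cells -0.88 to 0.13, the Ighm share -1.03 to 1.30 and switched cells -0.12 to 0.26. Thinned, a setting added for these 4 after the data were seen, they were -2.35, 1.43, -0.81 and 0.83. The share among leukocytes kept its sign in every setting. No paired analysis was possible because a hashtag number names a mouse only inside its own library, and nothing ties mice across the groups.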
